A study of Arabidopsis thaliana with 8 samples.

Results

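PIF3-binding sites that hold a PBE-box but no G-box made up 238 of the 1064 reproducible PIF3 sites of dark-grown *Arabidopsis thaliana* seedlings (22.4%, exact 95% interval 19.9 to 25). The summits of the 4 deposited peak lists were joined where they lay less than 100 bp apart, and each group drawn from 2 or more of the lists was kept as a site at its mean summit. A site was a member if a PBE-box (CACATG on either strand) and no G-box (CACGTG) had its midpoint less than 100 bp from the mean summit. Of the other sites, 392 held only a G-box, 140 held both motifs and 294 held neither. The motifs defined the members, so the presence of a PBE-box within this window is not a result.

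The 4 lists came from 8 ChIP-seq libraries of whole 2-d-old seedlings, 4 biological replicates each of P3M and of wild type (WT). P3M seedlings carry a 35S:6xHis-PIF3-5xMYC transgene in the *pif3-3* null mutant, while WT seedlings have no epitope and served as the control for the MYC antibody. In both, seeds received white light for 3 h at 21°C and far-red light for 15 min, and then grew in darkness, and 4 immunoprecipitates were pooled into each library. The authors had called peaks with MACS, setting each P3M library against its equally numbered WT library. The lists held 696, 2517, 526 and 3089 peaks for replicates 1 to 4, and a median peak held between 87 and 189 tags. They give no library totals, so the depth is unknown. A false discovery rate of 100% stood beside 673, 0, 525 and 2164 peaks. The 35S promoter drives PIF3 in most tissues, so that the lists record binding of the tagged protein at its transgenic level. Whole seedlings were sampled, and binding in fewer cells cannot be told apart from weaker binding in each cell.

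PIF3 is a basic helix-loop-helix (bHLH) transcription factor that accumulates in darkness, promotes the dark-grown habit of the seedling, with its long hypocotyl and closed cotyledons, and is degraded after photoactivated phytochrome binds to it. bHLH dimers contact the E-box, which reads CA at one end and TG at the other with any pair of bases between them. The G-box is the palindromic E-box that PIF proteins are best known to bind. The PBE-box (PIF-binding E-box) differs from it by a single base and is not a palindrome, so that it has an orientation.

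The boxes nearest the summit in the 12 members that led the 4 lists are printed to show the motif in its context, each read 5′ to 3′ in the orientation in which the box, in capitals, is CACATG. Each is named by the protein-coding gene whose annotated start is closest. These members were present in all 4 lists and, by the p-values the authors deposited, ranked best on average. Sequences are from the RefSeq copy of TAIR10.1.
IBH1, chr2:17907249-17907278, minus strand: tgggccaaccacCACATGaaggcacatggc
HB5, chr5:26100563-26100592, plus strand: atgggtcctactCACATGgctctccaccaa
IAA2, chr3:8181932-8181961, minus strand: aagagtcgtgtcCACATGggcggcctcaag
AHL19, chr3:1233607-1233636, plus strand: ttcacatggtacCACATGggttcctcttgc
NCED3, chr3:4839023-4839052, minus strand: gagcgtgcgtaaCACATGgagacgaaatct
AT5G02530, chr5:566086-566115, minus strand: atgcgtgtgcttCACATGtacttgtccaca
HB16, chr4:18569772-18569801, plus strand: ttggcccacaatCACATGggtatgtgggcc
AT5G03370, chr5:828746-828775, minus strand: ccacctcaggccCACATGgcaatttttgtc
RTFL21, chr1:25178272-25178301, minus strand: tcacgggattatCACATGtcgaccggtcta
AT1G60010, chr1:22099992-22100021, minus strand: ttccaacaccttCACATGgcacacacacac
ASL15, chr2:17668032-17668061, minus strand: atggcagtatggCACATGacacctccaaag
AT3G54200, chr3:20065116-20065145, minus strand: aatcaaatacttCACATGgcttttgtaaag
The base right after the box was G in 8 of these 12, and the IBH1 and AHL19 windows each show a second PBE-box beside the first.

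The strongest PBE-box site lay 1747 bp upstream of *IBH1* (*AT2G43060*), which encodes a helix-loop-helix protein that restrains cell elongation. Its MACS fold over the local background was 11.3, 13.3, 14.0 and 26.4 in replicates 1 to 4, with 133, 280, 378 and 716 tags. Among all members these were the highest folds of replicates 2, 3 and 4, while 2 members were higher in replicate 1, with folds of up to 11.5. The site holds 2 PBE-boxes, and its nearest G-box was 948.5 bp away.

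The next member by rank lay 4021 bp from the start of *HB5*, which encodes an HD-Zip class I factor. This member was 3026 bp upstream of the tRNA gene *AT5G65305*. Its folds were 7.58, 7.89, 9.73 and 21.7 in replicates 1 to 4, with a G-box 133.5 bp from the summit, just outside the window of the rule. The 3 lower values lay close together and replicate 4 stood above them. A site in the coding sequence of *IAA2* (*AT3G23030*), 159 bp after its start, had folds of 8.77, 9.04, 7.29 and 13.3. *IAA2* encodes an Aux/IAA repressor of auxin response. A site with 2 PBE-boxes, 2879 bp from the start of the AT-hook gene *AHL19*, had folds of 8.11, 12.2, 11.7 and 21.7. The site closest to *NCED3*, which encodes the dioxygenase at the limiting step of abscisic acid synthesis, had folds of 11.4, 8.85, 8.16 and 15.8, and lay 5027 bp from its start. In each of these sites replicate 4 gave the highest fold, as it did at 36 of the 39 members present in all 4 lists, while replicate 2 gave the highest at the other 3.

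The remaining leading members lay closest to the HD-Zip class I gene *HB16* (3292 bp), *RTFL21* (2056 bp), which encodes a small ROTUNDIFOLIA-like peptide, *ASL15* (1791 bp), a gene of the LBD family, and *AT5G02530*, *AT5G03370*, *AT1G60010* and *AT3G54200*. Over all 12, folds ranged from 5.12 to 11.4 in replicate 1, from 6.39 to 13.3 in replicate 2, from 5.06 to 14.0 in replicate 3 and from 8.56 to 26.4 in replicate 4. The site next to *AT5G02530* had the most tags of the 12 in replicate 4, 999, with folds of 7.32, 6.39, 8.51 and 11.6. The *HB16* site had a G-box 151.5 bp and the *ASL15* site one 115.5 bp from the summit. Of the 12 sites, 11 were intergenic. A closest start does not make a site upstream of that gene. By the upstream rule given below, the sites closest to *AHL19*, *NCED3*, *HB16* and *ASL15* received no gene. The site closest to *HB5* received only the tRNA gene *AT5G65305*.

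**Figure D1:**
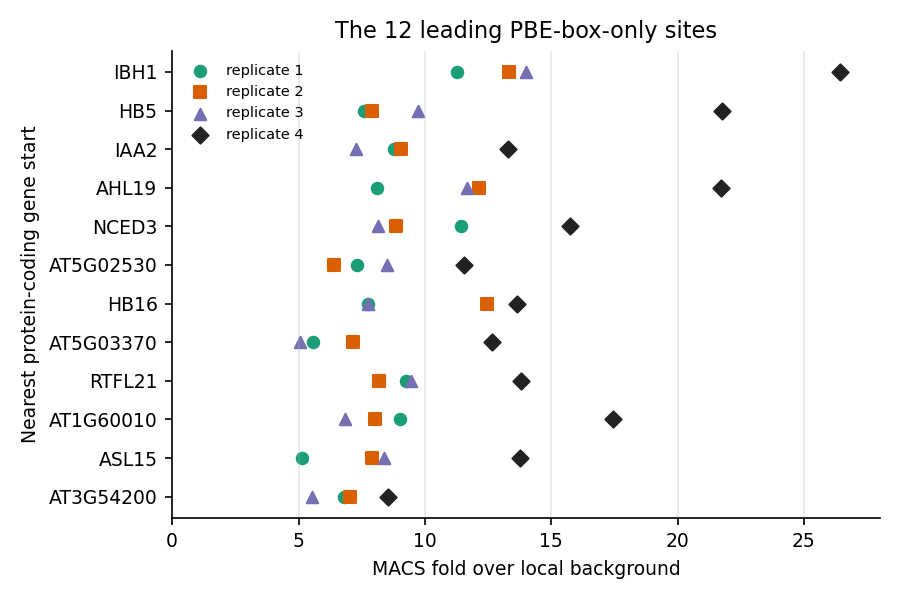
MACS fold over the local background (horizontal axis) of the 12 leading PBE-box-only sites in each of the 4 replicates (symbols), named by the closest protein-coding gene start. The replicate 4 values reach 26.4 at the IBH1 site and lie to the right of the other 3 at every site shown.

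Genomic regions that the study tested by ChIP-qPCR or by in vitro DNA binding lay in some of these sites. Primer pairs of 48 regions were placed on the genome, and 10 of them centred within 100 bp of the summit of a member, each in all 4 lists. The sites of *IBH1*, *IAA2*, *RTFL21* and the *AT5G02540* and *AT5G02530* pair are among the 12 above. The other 6 lie in the 5′ UTR of *AT4G30410* (bHLH159), of *P1R1* and of *AT3G54510* (ERD4), in the 3′ UTR of *AT3G06590* (a region named for *GALK*, whose start lies 1423 bp away), and in intergenic DNA next to *BOR1*, which encodes a boron exporter, and *AT1G12080*. The site in the bHLH159 gene had folds of 6.18, 5.99, 5.26 and 11.2 in replicates 1 to 4. The *AT1G12080* site had folds of 7.86, 11.6, 7.77 and 12.5, and the *BOR1* site had 7.48, 9.27, 4.33 and 7.66. Replicate 4 was highest at the first 2 of these and replicate 2 at *BOR1*. The probes built for *IBH1*, *IAA2* and bHLH159 map over the summit at a distance of 1.5, 10.5 and 16.5 bp from their midpoints. The nearest boxes of the bHLH159 and *AT1G12080* sites are shown because they differ in the base after the box.
bHLH159, chr4:14872249-14872278, plus strand: agataggagaagCACATGcatgcacatgct
AT1G12080, chr1:4082632-4082661, plus strand: ctggcttatagtCACATGagcccgcaactt

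PBE-box-only sites recurred in fewer lists than G-box-only sites. Of the 238 members, 142 were present in 2 lists, 57 in 3 and 39 in all 4, so that 40.3% (exact 95% interval 34.0 to 46.9) were present in 3 or 4. Among the 392 G-box-only sites this share was 52.3% (47.2 to 57.3), a difference of -12.0 percentage points (95% interval -19.7 to -3.92, Newcombe), with an odds ratio of 0.617 (two-sided Fisher's exact test, p = 0.00398). The share was 55.7% among the sites with both motifs and 22.8% among those with neither. The sites of a class share libraries, and the test treats them as independent. With 1 replicate left out only 3 lists remain, and the measure becomes the share of sites present in all 3. Its difference was -5.18, -7.68 and -3.42 points without replicate 1, 2 or 4 (Fisher's exact p = 0.264, 0.112 and 0.557, respectively). Without replicate 3 it was -11.9 points (Fisher's exact p = 0.0065).

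**Figure D2:**
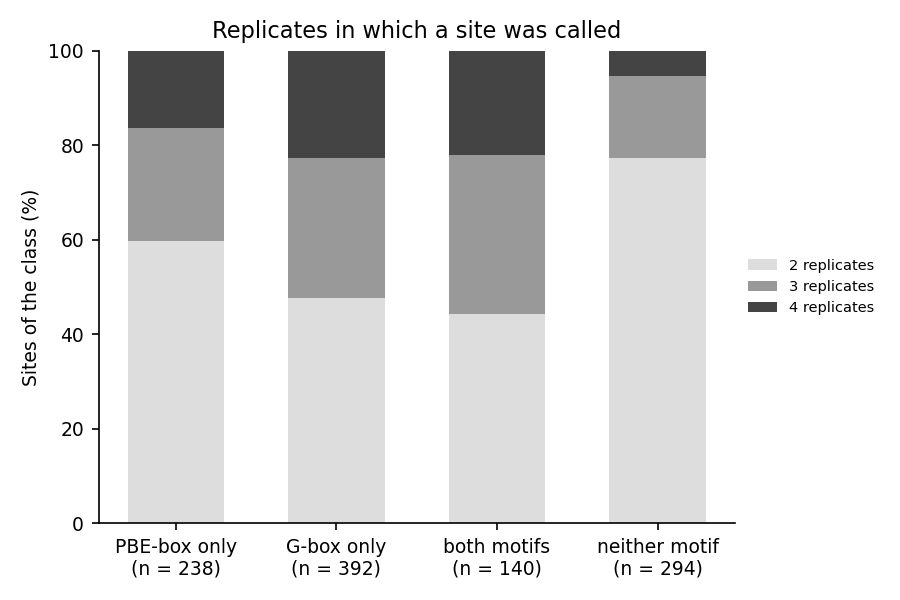
Share of the sites of each motif class (vertical axis, percent) that were called in 2, 3 or 4 of the replicates (shades). In the PBE-box-only class 59.7% of the sites were called in 2 replicates, against 47.7% in the G-box-only class.

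Replicate 4 listed 219 of the members, replicate 2 listed 169, replicate 3 listed 112 and replicate 1 listed 111. In relation to the G-box-only class these are shares of 92.0% against 94.4% in replicate 4, 71.0% against 82.7% in replicate 2, 47.1% against 43.4% in replicate 3, and 46.6% against 54.6% in replicate 1. Replicate 3 was thus the list in which the PBE-box class had the higher share. Most often, members were shared by replicates 2 and 4 only (65 members), followed by all 4 replicates with 39 and by replicates 3 and 4 with 37. Replicates 1 and 3 alone shared 2. Where a member had no summit in a list, the mean summit was still covered by a peak of that list for 3 of 127 members in replicate 1, 9 of 69 in replicate 2, 1 of 126 in replicate 3 and 5 of 19 in replicate 4. The outermost summits of a member lay a median of 19 bp apart, and those of a G-box-only site 23 bp. The authors' false discovery rate was under 5% for 0, 23, 0 and 29 of the members listed in replicates 1 to 4. For G-box-only sites it was under 5% for 9 of 214, 60 of 324, 1 of 170 and 90 of 370.

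The fold of members was slightly lower than that of G-box-only sites in all 4 replicates, by less than the spread within either class. Median folds of members were 5.32, 5.12, 4.44 and 6.10 in replicates 1 to 4, and those of G-box-only sites were 5.58, 5.21, 5.02 and 6.53. The quartiles of the members were 4.45 and 6.33, 4.23 and 6.29, 3.76 and 5.38, and 4.94 and 8.36, and those of G-box-only sites were 4.63 and 6.85, 4.32 and 6.65, 4.09 and 6.42, and 4.80 and 9.50, so that the quartile ranges overlapped in every replicate. The highest folds were 11.5, 13.3, 14.0 and 26.4 for members and 22.8, 27.0, 17.1 and 34.1 for G-box-only sites. The classes lay further apart in the MACS score, whose medians were 76.9, 97.8, 75.9 and 208 for members and 97.7, 105, 111 and 277 for G-box-only sites, differences that were not tested. On the log2 scale the differences of the medians were -0.069, -0.024, -0.18 and -0.098, with a mean of -0.092 (exact sign-flip permutation test over 4 replicates, two-sided p = 0.13, the smallest that 4 replicates allow). A site enters a list only if its peak was called, so these medians leave out the lists that lack it. The lowest folds were those of a site closest to *AT3G41762*, with 2.01 and 1.83 in replicates 1 and 2, where it held 840 and 850 tags. This member was chosen after its values were seen.

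**Figure D3:**
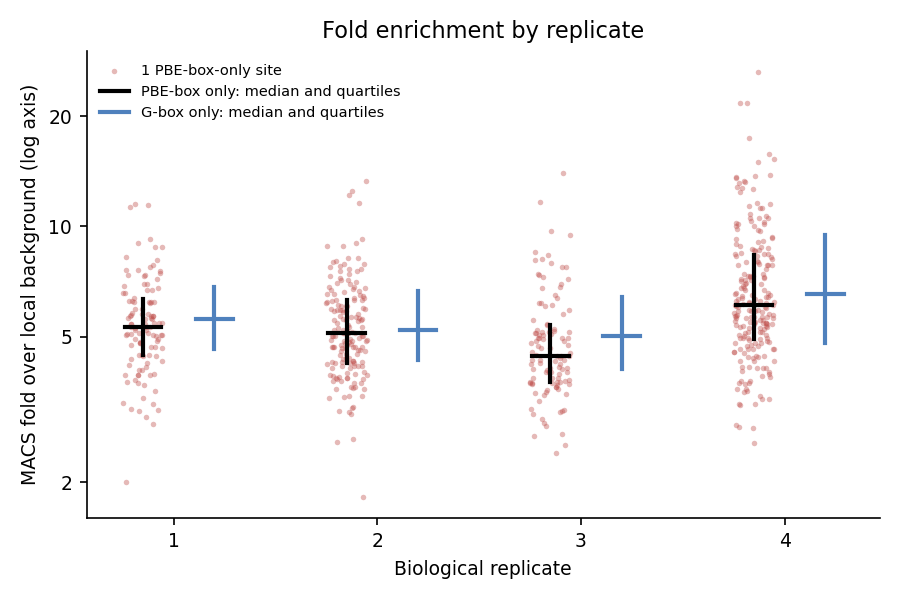
MACS fold over the local background (log axis) of each PBE-box-only site in each replicate, with the median and quartiles of that class (black) and of the G-box-only class (blue). The black medians, 5.32, 5.12, 4.44 and 6.10, lie below the blue ones within overlapping quartiles.

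The rule used the distance from the box to the summit, up to 100 bp, so the distances are given as a description with no test. The nearest box was within 10 bp of the mean summit in 87 members and within 25 bp in 173 (72.7%), with a median distance of 14.5 bp (quartiles 6.5 and 27.5). In the G-box-only class, chosen by the same distance, 271 of 392 nearest G-boxes (69.1%) lay within 25 bp, with a median of 15.5 bp. Near the limit of the window, 7 members had their nearest box less than 12 bp inside 100 bp, at 90.5 to 98.5 bp, and 4 sites without a G-box had theirs less than 12 bp outside it, at 100.5 to 109.5 bp.

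**Figure D4:**
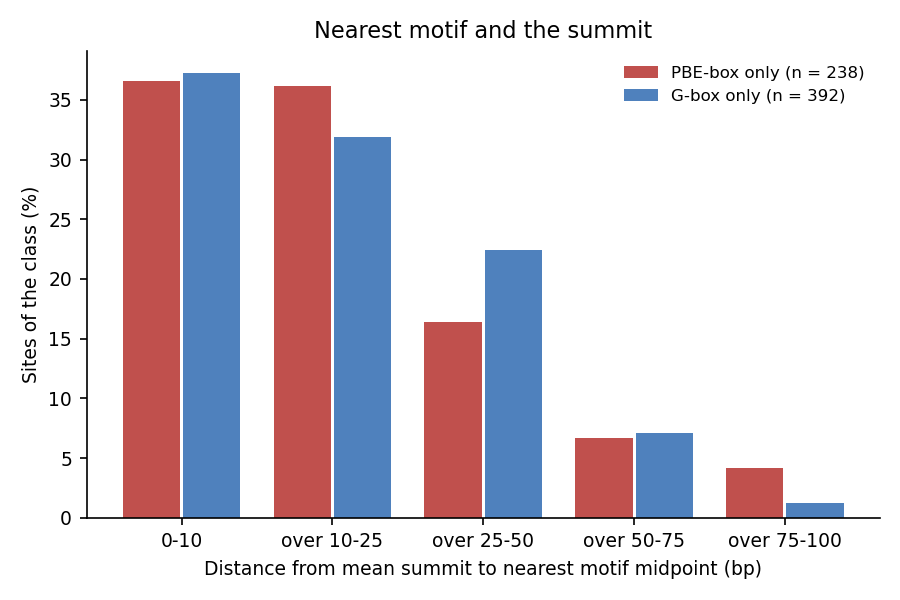
Share of sites (vertical axis, percent) by the distance in bp from the mean summit to the midpoint of the nearest PBE-box in PBE-box-only sites, or of the nearest G-box in G-box-only sites. In the first bin, up to 10 bp, lie 36.6% of the PBE-box-only and 37.2% of the G-box-only sites.

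A single PBE-box was present in 180 members (75.6%), 2 in 47, 3 in 9 and 4 or 5 in 2. The 58 members with more than 1 box were present in 3 or 4 lists in 31.0% of cases (exact 95% interval 19.5 to 44.5), and those with a single box in 43.3% (36.0 to 50.9), intervals that overlap. Their median folds were 5.45, 5.21, 5.08 and 5.84 in replicates 1 to 4, against 5.12, 5.11, 4.38 and 6.13 for a single box, higher in 3 replicates and lower in replicate 4. Neighboring boxes within a site formed 72 pairs, of which 9 overlapped as the palindrome CACATGTG and 9 had starts exactly 10 bp apart, as in the *IBH1* and bHLH159 sites. Of the 63 pairs that did not form the palindrome, 32 had both boxes on the same strand and 31 on opposite strands. For the 87 members upstream of a single gene, the nearest box read CACATG on the strand of the gene in 48 and on the other strand in 39.

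A G-box lay 100 to 250 bp from the summit in 17 members (7.14%) and 250 to 500 bp away in 14 (5.88%), against 8.50% and 8.50% of the sites that held neither motif. Members with another reproducible PIF3 site within 1000 bp numbered 16, and in 5 of them the closest such site was a G-box-only one. Of the other E-boxes, 5 were present in a higher share of the members than of windows 500 bp to either side, and 3 in a lower share, with no test made. CAAGTG was present in 11.8% of the members and 5.67% of the windows, but also in 11.2% of the G-box-only sites and 17.0% of the sites with neither motif. CAACTG was present in 2.52% and 5.67%, CAATTG in 4.62% and 7.14%, and CATATG in 4.62% and 6.93%.

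The bases around the PBE-box in the members differed from those around PBE-boxes in the same neighborhoods. The nearest box of each of the 238 members was compared with 233 boxes that lay 200 to 1000 bp from their summits, over 100 bp from any site or G-box. Of the 24 combinations of 4 bases and 6 flanking positions, 10 differed (two-sided Fisher's exact test with Benjamini-Hochberg adjustment), which is 41.7% of those tested. The test treated boxes of the same neighborhood as independent. The largest difference was at the base directly after the box, which was G in 45.4% of the members (exact 95% interval 38.9 to 51.9) and in 17.6% of the boxes farther away (12.9 to 23.1), an odds ratio of 3.89 (adjusted p = 1.79e-09). The same base was T in 14.7% against 33.0% (exact adjusted p = 3.46e-05) and A in 14.3% against 30.9% (adjusted p = 0.000125). Before the box, A was present in 15.5% against 32.2% (exact adjusted p = 0.000136) and C in 26.1% against 14.2% (adjusted p = 0.00527). At the third base after the box, C was present in 30.7% against 15.5% (exact adjusted p = 0.00057). The bases at the remaining positions that passed were G at the second after and the third before the box, which were more frequent, and A at the third after and the second before, which were less so. Of these calls, T after the box was lost without replicate 4, G at the second base after it without replicate 3, and A at the third base after and the second before without replicate 2, 3 or 4. With peaks at a p of 1e-10 or lower G after the box alone was called. The excess of G after the box was called under every alternative tried, with the smallest set of 80 members too. In the main comparison every called base that was more frequent was G or C, and every one that was less frequent was A or T. The median GC content was 35.8% in the members and 30.3% in windows 500 bp to either side. Its part in these calls was not tested.

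In the 140 sites with both motifs, which the comparison did not use, the nearest PBE-box was followed by G in 31.4% (exact 95% interval 23.9 to 39.8), a value between the members and the boxes farther away. Over the nuclear genome, where boxes on both strands were counted, 10950 PBE-boxes are followed by G and 126 of them lay in a member, or 11.5 per 1000. This rate was 6.20 per 1000 for C, 3.37 for T and 2.32 for A, against 5.03 for the 61674 boxes of all kinds. By the base after the box, 40.7% of the 108 members with G, 39.3% of those with C, 37.1% with T and 44.1% with A were present in 3 or 4 lists, with overlapping intervals. Median folds in replicates 1 to 4 were 5.45, 5.19, 4.46 and 6.05 for G, 5.52, 5.25, 4.2 and 5.90 for C, 5.32, 4.59, 5.13 and 5.93 for T, and 4.94, 4.64, 4.18 and 6.27 for A, so that no base was highest in all replicates.

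Beyond the box, the short sequences of the members differed from those of the DNA around them. All sequences of 6 bases, both strands together, were counted in the members and in windows of the same length 500 bp to either side of each. Leaving out those that share 4 or more bases in register with either motif, 2019 remained. Of these, 129 were more frequent in the members (6.39% of those tested) and 63 less frequent (3.12%), by two-sided Fisher's exact test with Benjamini-Hochberg adjustment. The test treated a member and its own windows as independent. The GC content beside these counts was 35.8% in the median member, 30.3% in the median window and 40.8% in the median G-box-only site, and its part in the counts was not tested.

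The leading hexamers were ATGGGC, in 21.4% of the members and 4.41% of the windows (odds ratio 5.91, exact adjusted p = 1.70e-09), and ATGGTC, in 20.6% and 4.20% (5.91, 4.14e-09). CCCCAC was present in 12.2% against 0.84% (odds ratio 16.4, exact adjusted p = 7.66e-09), ACCCAT in 23.5% against 6.72% (4.27, 8.25e-08) and GACCCA in 16.8% against 3.15% (6.21, 9.23e-08). The sizes depend on the windows: against windows 1000 bp to either side, the log2 odds ratio fell from 4.03 to 1.52 for CCCCAC and from 2.56 to 1.18 for ATGGTC, both still called. The first 2 of these hexamers and, read on the other strand, ACCCAT can begin with the last 3 bases of a PBE-box that is followed by G, as in the *IAA2* and *AHL19* windows, and CCCCAC can end with its first 3. With each box and 3 bases on either side masked, the 5 hexamers, in the order named, were present in 16.0%, 15.5%, 10.9%, 18.9% and 14.7% of the members, and all 5 were still called. ACCCAT overlaps GACCCA by 5 bases. In the G-box-only sites these 5 hexamers were present in 15.8%, 10.7%, 9.18%, 14.8% and 20.4%. Those that were less frequent were led by TAACAA, in 10.5% of the members against 27.3% of the windows (odds ratio 0.312, exact adjusted p = 9.06e-06), TCAAAA, in 19.7% against 37.4%, AAATTT, in 13.4% against 27.9%, TGTTAA, in 8.40% against 21.0%, and AATTAC, in 6.30% against 18.1%. The call of TAACAA was lost without replicate 4 (exact adjusted p = 0.082), and that of TGTTAA without replicate 2 (0.0811) and without replicate 4 (0.331). With the boxes masked in members and windows, 69 hexamers were more and 59 less frequent. A hexamer is a description of the sequence, and no factor was assigned to one.

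Most members lay between genes. On the TAIR10.1 annotation, 180 of the 238 mean summits (75.6%) were intergenic, 31 (13.0%) lay in a 5′ UTR, 5 in coding sequence, 7 in a 3′ UTR, 4 in introns and 11 in non-coding genes or pseudogenes. In the G-box-only class 74.2% were intergenic, and the difference of 1.4 percentage points had a 95% interval of -5.72 to 8.17 (Newcombe; Fisher's exact test, adjusted p = 0.883 over 6 classes). Its sign turned under 5 of the alternatives, and it did not pass the test under any. None of the other 5 classes differed at an adjusted p of 0.05, and the smallest unadjusted p was that of the 3′ UTR, with 2.94% against 1.02% (exact p = 0.113). By chromosome, 70, 51, 49, 26 and 42 members lay on chromosomes 1 to 5.

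A gene was assigned to an intergenic member if its start lay within 5 kb with no other annotated gene between and the member upstream of it. In this way 150 members received 211 genes, of which 187 encode proteins, and 63 members lay between 2 such genes. The median distance to the start was 1114 bp, with 45.0% of the genes within 1 kb and 88.6% within 3 kb. A further 58 members lay in a gene. Together, 269 of the 37899 nuclear genes, or 0.71%, had a member upstream or inside.

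Of 559 genes in 16 lists of hormone, light, growth and clock genes, 22 had a PBE-box-only site (3.94%), in 11 of the lists. Over all 37899 nuclear genes, non-coding ones included, the share was 0.71%, and none was computed over protein-coding genes alone. The lists were drawn up with results of these data known, and the share of listed genes is a description. The lists are selections, and a gene that a list lacks was not counted even where it had a member. The 23 sites next to these genes were present in all 4 lists in 5 cases, in 3 in 7 cases and in 2 in 11 cases. The *IBH1*, *IAA2*, *ARR8*, *EDF3* and *GI* sites were those in all 4.

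Among the listed auxin genes, 3 of 29 Aux/IAA genes, 3 of 78 SAUR genes and 2 of 55 genes of auxin synthesis, response and transport had a site. Besides *IAA2*, these included *IAA14*, with a site in its 3′ UTR (folds of 6.72, 5.11 and 10.3 in replicates 1, 2 and 4), and its neighbor *IAA1*, with a site 2770 bp upstream (2.40 and 3.28 in replicates 3 and 4). Both encode repressors of auxin-responsive transcription, and their sites lay 10360 bp apart on chromosome 4. The *IAA1* fold was the lowest of all members in replicate 3, far below those of *IAA2*. *PIN3*, which encodes an auxin efflux carrier, had a site 468 bp upstream with folds of 5.77, 3.60 and 6.43 in replicates 1, 3 and 4. *ARF19*, an auxin response factor gene, had a site 580 bp upstream with folds of 5.44 and 6.86 in replicates 2 and 4. *SAUR16* (532 bp upstream) was listed in 3 replicates, with folds of 4.80, 5.21 and 5.93, and *SAUR52* and *SAUR66*, the latter in its 5′ UTR, in 2. Members outside these counts lay 849 bp upstream of *GH3.1*, 184 bp upstream of *GH3.3*, 977 bp upstream of *NIT1* and inside *GH3.17*.

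Of the 22 genes in the list of growth-related helix-loop-helix factors, which did not include bHLH159, 3 had a site. In addition to *IBH1*, these were *BEE2*, 138 bp from its site (folds of 4.24, 4.01 and 6.0 in replicates 1, 3 and 4), and *HBI1*, 475 bp from its site (4.83 and 5.16 in replicates 1 and 4). Both encode bHLH factors that promote growth, and *IBH1* encodes an inhibitor of *HBI1* activity. The folds of the *IBH1* site were above those of both in every list that held them. The false discovery rate was 100%, 100% and 80.6% at *BEE2* in replicates 1, 3 and 4, and 100% at *HBI1* in replicates 1 and 4. At the *IBH1* site it was 100%, 0%, 100% and 0% in replicates 1 to 4. Such rates were not limited to this list: it was 100% at *IAA1* in replicates 3 and 4 and at *BBX8* in replicates 1, 3 and 4. The nearest boxes of the pair are printed because they are alike: 16 of the 24 bases outside the box are identical.
BEE2, chr4:17243407-17243436, plus strand: taaggacatgacCACATGgtaggttatgtc
HBI1, chr2:7955244-7955273, minus strand: taaggacatgccCACATGgtgtgggttatg

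In the gibberellin list 2 of 28 genes had a site. *GID1B*, which encodes a gibberellin receptor, had 2 members upstream, at 904 bp with 3 boxes (folds of 4.28, 5.27 and 4.54 in replicates 1, 2 and 4) and at 136 bp with 1 box (5.58 and 6.58 in replicates 2 and 4). It was the only protein-coding gene with 2 members upstream of it. *GA2OX6*, which encodes a gibberellin-inactivating oxidase, had a site 1025 bp upstream with folds of 6.27, 4.75 and 9.86 in replicates 1, 2 and 4.

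The ethylene, DREB and RAV list had 2 of 38. Not counted there was *AT1G77200*, a gene the study assigns to the AP2-EREBP family, with a member 1035 bp upstream. The site 439 bp upstream of *EDF3*, a DNA-binding factor gene of the RAV family, had folds of 6.59, 6.71, 6.78 and 13.6 in replicates 1 to 4, and *RAV2*, which encodes a related repressor of flowering, had 4.90 and 8.95 in replicates 2 and 4. The first 3 *EDF3* values were almost equal. Of the clock list 2 of 21 had a site: *GI*, which encodes a large clock protein, had folds of 6.39, 6.95, 3.12 and 5.65, and the TCP factor gene *CHE* had 4.74 and 4.92 in replicates 1 and 2. *CHE* was thus one of the members that replicate 4, the longest list, did not hold. Of the B-box list 2 of 31 had one, *BBX8* in its 5′ UTR and *BBX15* 2739 bp downstream of its site.

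The cytokinin list had 1 of 46, *ARR8*, which encodes a type-A response regulator, with folds of 4.45, 3.86, 3.76 and 6.21 in replicates 1 to 4. The abscisic acid list had 1 of 35, the bZIP factor gene *GBF3*, with 8.22 and 5.42 in replicates 2 and 4. The expansin and XTH list had 1 of 64, *EXPA8*, which encodes a cell-wall-loosening expansin, with 5.23 and 5.44 in replicates 1 and 4. The *ARR8* site was thus found in every list at a modest fold. No listed gene had a site among the 28 phytochrome-interacting factor and light-signaling genes, the 22 HD-Zip genes, the 19 brassinosteroid genes, the 29 genes of photosynthesis, chlorophyll and carotenoids, or the 14 housekeeping genes. Outside these counts, members lay 1516 bp upstream of *PHOT1*, 2364 bp upstream of *BSK6* and inside *PAT1*. *IBH1*, *BEE2* and *HBI1* were counted in the list of helix-loop-helix factors only. Where only protein-coding genes were considered, so that non-coding genes no longer came between, *PAR1*, *HAT22*, *ARF11* and *SAUR20* were added. Their sites had 3, 1, 1 and 1 PBE-boxes. The *SAUR20* site lay 1440 bp from that gene but 127 bp upstream of *AT5G18030*, which is not among the SAUR genes counted above. The *ARF11* site, 3562 bp upstream, was present in all 4 lists with folds of 4.14, 4.37, 6.48 and 10.8.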

How the data were processed

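Chromatin of 4 P3M and 4 WT replicates was immunoprecipitated with a MYC antibody and read as 36-nt single ends, in 2 runs for replicates 1 and 2. The labels state about 4 g of tissue and the methods about 2 g. The authors used CASAVA 1.7.0, then Bowtie 0.12.7 for alignment to TAIR9, and MACS 1.4.0rc2 for peak calling at a p of 1e-05, with the equally numbered WT library as the control of each P3M library. The tag counts of each peak, its fold (the ratio of tags at the summit to the local background) and its score (10 times the negative log10 of the MACS p-value) are used as deposited, as is the false discovery rate in percent that the authors' MACS runs gave. Reads and coverage were not used here, and the depth of the libraries is unknown.

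Sequence and genes were read from the RefSeq copy of TAIR10.1, on which all peaks fall within the chromosomes. Each site spans 201 bp. A G-box had to be absent within 100 bp of the mean summit, and distances run to the midpoint of a motif. Shares carry exact (Clopper-Pearson) 95% intervals, which cover counting error over sites only, and differences of shares carry Newcombe intervals from Wilson limits. Classes were compared with two-sided Fisher's exact tests and Benjamini-Hochberg adjustment, and median log2 folds with an exact sign-flip test over the 4 replicates. Replicates are biological per the labels, and the P3M and WT libraries enter through the authors' peak calls. Alternatives required 3 replicates or a p of 1e-10, left out each replicate, joined summits within 50 or 200 bp, used windows of 50 bp, required no G-box within 250 bp, or changed the class, value, annotation, distance, boxes or windows compared. Scripts were tested on simulated data and used Python 3.11.15, numpy 2.4.6 and scipy 1.17.1.

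The members and the gene lists were chosen with earlier results of these data known. Genes are named if they lie next to the 12 members in all 4 lists with the best mean rank of the p-value, if a probe or primer pair of the study lies in a member, or if they are listed genes with a member within 5 kb upstream or inside. The 5 hexamers with the smallest p in each direction are named. Of 638 list entries, 613 matched a RefSeq symbol or a unique synonym and 25 did not.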

Additional observations from a re-analysis of the deposited data

Results flagged for a closer look

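Of 28 sets of 4 replicate values examined, 3 had a replicate far from the other 3 by Dixon's test, where chance flags about 1 in 20. In each it was replicate 4, which was also the highest at 36 of the 39 members in all 4 lists. The fold of the site closest to *HB5* was 21.7 in replicate 4, that of the bHLH159 site 11.2, and that of the *EDF3* site 13.6. MACS computed the fold within each replicate, so that every replicate has its own scale.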

How the results depend on the processing

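The number of PBE-box-only sites was 96 with 3 replicates required and 80 with peaks at a MACS p of 1e-10 or lower, and ranged from 114 (without replicate 4) to 199 (without replicate 3) when 1 replicate was left out; without replicate 2 it was 157. The lower recurrence in 3 or 4 lists kept its direction but lost its call at a p of 1e-10 (-6.30 points, exact p = 0.355). With 3 replicates required this share has no value. When 1 replicate was left out, the share in all 3 remaining lists was compared instead, and its difference ranged from -11.9 to -3.42 points. The difference in nearest motifs within 25 bp turned at a p of 1e-10 (-0.74 points) and with 10 bp in place of 25 (-0.69), and ranged from -8.14 to 4.03 with a replicate left out, reversing without replicates 2 (-3.47) and 4 (-8.14). The intergenic difference turned at a p of 1e-10 (-5.43), with 3 replicates (-4.22) and with protein-coding genes only (-0.87), and ranged from -2.11 to 1.66 with a replicate left out, reversing without replicates 2 (-2.11) and 4 (-0.65). The first of these is a description, and the intergenic difference passed no test. The mean log2 fold difference, -0.092, stayed below 0 under all 12 alternatives but changed in size: it was -0.03 without replicate 4, -0.051 without replicate 3, -0.15 without replicate 2 and -0.02 at a p of 1e-10. Flanking bases called numbered 6 with 3 replicates and 1 at a p of 1e-10, against 10, and 7 to 11 with a replicate left out. Hexamers numbered 57 with 3 replicates, 27 at a p of 1e-10 and 111 with windows 1000 bp away, against 192, and 74 to 165 with a replicate left out (96 without replicate 2, 74 without replicate 4). With boxes masked, chosen after seeing the data, they numbered 128. Fewer members were tested in the first 2 settings and with replicates left out. Listed genes numbered 12, 8 and 13 with 3 replicates, at a p of 1e-10 and without replicate 4, against 22. Of 131 values for the 10 named hexamers and the G after the box, none reversed and 14 lost their call, 3 of them with a replicate left out. No paired analysis was possible because P3M and WT are not separate values in the deposited lists: MACS paired them by number. The sign-flip test compares site classes within each replicate. The causes of the changes not covered above were not tested.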
